A study of Mus musculus with 6 samples.

Results

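The genes described are 10 that T cells raise together when they leave the naive state for the memory pool: the S100 genes S100a4, S100a6, S100a10 and S100a11, the annexins Anxa1 and Anxa2, the galectins Lgals1 and Lgals3, the LIM domain gene Crip1 and the scaffold gene Ahnak. Their rows were taken as every array row annotated with exactly 1 of these symbols, which gave 11 rows for 10 of 10 genes, among 19935 genes in all. In Dicer KO cells Crip1 and Ahnak fell, 0 of the 10 genes rose, and the other 8 did not pass the test, which called 2.79% of all genes lower and 5.94% higher in Dicer KO. Crip1 was 2.40-fold lower and Ahnak 1.20-fold lower in Dicer KO than in Dicer WT, with the deposited values read as log2. Crip1 was called in 10 of 13 alternative settings and Ahnak in 3 of 13.

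Dicer KO samples were sorted from animals with both Dicer alleles floxed and a positive CD4Cre transgene, in which Cre under Cd4 control deletes Dicer in developing T cells. Dicer WT samples were sorted from animals with the same Dicer lox/lox alleles and no CD4Cre, so the floxed alleles are shared by both genotypes and Cre is not. Each genotype had 3 samples, described as biological replicates, of untreated lymph node T cells sorted as CD4+CD62L- and called resting. Age, sex and strain of the animals were not given in the sources used here.

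S100 proteins are small EF-hand proteins that bind calcium and then grip partner proteins, and S100a10 is the exception that holds its active shape without calcium. Annexins bind membrane phospholipids when calcium is present, and a pair of S100a10 chains joins Anxa2 into a complex under the plasma membrane, to which the very large protein Ahnak also binds. Galectins bind beta-galactoside sugars on glycoproteins. Transcripts of all these families are typically more abundant in effector and memory CD4 T cells than in naive ones.

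The 250 bases before the transcription start are shown for Crip1, the largest fall, for Ahnak, the smaller fall, and for Anxa2, the member with the largest positive difference. They are RefSeq sequences of build GRCm38.p6, on the gene's strand and from 5′ to 3′, and 8 of the 10 genes had an entry. Capitals mark every match, on either strand, to GGGCGG (reverse CCGCCC, the core of the GC box bound by Sp and Kruppel-like factors), TATAAA (reverse TTTATA, the TATA box) and TGAGTCA (reverse TGACTCA, the AP-1 element), including matches that overlap each other.
Crip1, chr12:113151762-113152011, plus strand: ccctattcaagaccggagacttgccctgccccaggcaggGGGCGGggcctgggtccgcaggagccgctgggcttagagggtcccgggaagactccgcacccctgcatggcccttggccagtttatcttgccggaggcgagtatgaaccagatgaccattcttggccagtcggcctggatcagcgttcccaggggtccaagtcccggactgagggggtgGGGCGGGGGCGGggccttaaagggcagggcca
Ahnak, chr19:8989034-8989283, plus strand: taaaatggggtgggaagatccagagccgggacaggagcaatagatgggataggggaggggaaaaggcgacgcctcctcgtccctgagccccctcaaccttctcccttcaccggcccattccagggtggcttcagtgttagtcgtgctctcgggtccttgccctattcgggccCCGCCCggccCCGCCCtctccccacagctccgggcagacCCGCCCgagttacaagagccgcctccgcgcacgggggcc
Anxa2, chr9:69453433-69453682, plus strand: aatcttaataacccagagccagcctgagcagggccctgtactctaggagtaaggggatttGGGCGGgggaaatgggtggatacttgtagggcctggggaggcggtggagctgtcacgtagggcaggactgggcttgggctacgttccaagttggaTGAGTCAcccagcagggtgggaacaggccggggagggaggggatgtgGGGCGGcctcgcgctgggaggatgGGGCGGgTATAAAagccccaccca

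The windows of Crip1 and Ahnak each held 3 GC box cores and no match to the TATA or AP-1 letters. The window of Anxa2 also held 3 GC box cores, with 1 match each to the TATA and AP-1 letters. The GC box core was present in 5 of the 8 windows and in 32.7% of 32851 RefSeq promoter windows of this length. TATAAA was present in 3 of the 8, among them S100a4 and Anxa1, and in 12.4% of all windows. TGAGTCA was present in 2 of the 8, S100a11 and Anxa2, and in 4.46% of all windows. A match is only a description of the letters.

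Values below are the deposited log numbers, in which the median of the 6 arrays has been taken from each row. The sources used here do not state the log base, which is assumed to be 2, and every fold change rests on that. A value of 0 is therefore the middle of the 6 arrays, and differences between genotypes are given, not levels. The differences were tested with limma over all 19935 genes at an adjusted p of 0.05, which called 8.73% of all genes, 5.94% higher and 2.79% lower in Dicer KO. Of the 10 genes, 0 were called higher and 2 lower. The median difference of the 10 genes was -0.06, beside -0.011 over all genes, and 5% of all genes lay below -0.25 and 5% above 0.39. All 3 arrays of one genotype lay above all 3 of the other for 2 of the 10 genes, the same pair that was called, and for 26.2% of all genes.

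The 6 arrays separated by genotype on the component with 55.4% of the variance. On the next, with 21.2%, Dicer KO 3 (-10.5) and Dicer WT 3 (-14.1) lay apart from Dicer KO 1 (10.2), Dicer WT 1 (8.05) and Dicer WT 2 (8.22), with Dicer KO 2 at -1.89. Without both arrays numbered 3, 1 of the 10 genes was called, Crip1. The Dicer1 row differed by 0.02 ± 0.09 (SE, adjusted p = 0.949). Its probes cannot be placed on exons from the sources used here, so the row checks nothing about the deletion. A storage step of the numbers, which is coarser at higher values, served as a rough level class. It put 12 of 12 T cell markers at a log value of 8 or more on every array, against 1 of 2 CD8 T cell (Cd8b1), 1 of 15 B cell, 2 of 20 myeloid, 0 of 7 NK cell and 0 of 12 stromal and endothelial markers, and 16.4% of all genes. By the same class Anxa2, Lgals1 and S100a10 were at 8 or more on every array, and the other 7 genes were below it on at least 1 array. A row's class can be wrong.

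**Figure D1:**
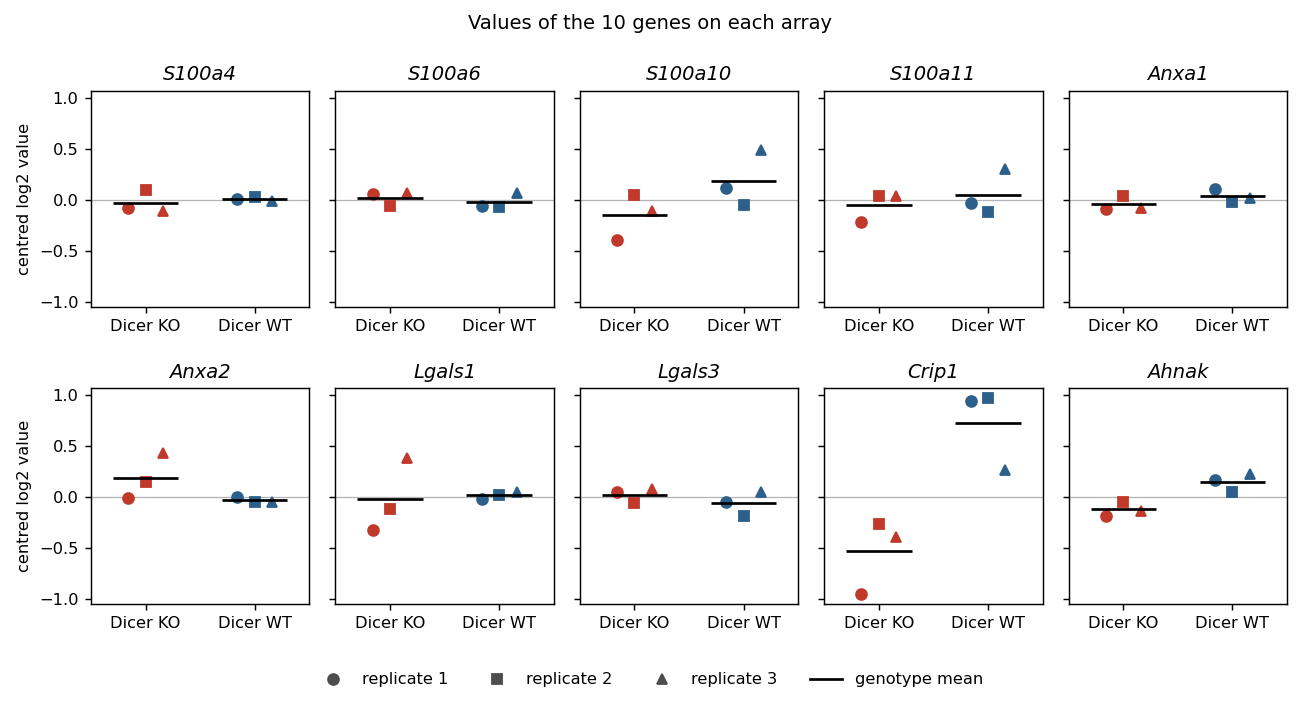
Each panel plots 1 gene, with its centred log2 value on each array on the y axis and Dicer KO left of Dicer WT, where marker shapes give the replicate number and black lines the mean of 3 arrays. The genotypes are apart for Crip1 and Ahnak and overlap for the other 8 genes.

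Crip1 encodes a small protein with 1 LIM zinc-binding domain, first described in the intestine. Its values were -0.95, -0.26 and -0.39 in Dicer KO 1 to 3, against 0.95, 0.97 and 0.26 in Dicer WT 1 to 3. All KO arrays lay below all WT arrays, and the lowest WT array, Dicer WT 3, stood nearest to the KO arrays. The means were -0.54 ± 0.37 in Dicer KO and 0.73 ± 0.40 in Dicer WT (SD, n = 3 each). The difference of -1.26 ± 0.24 (SE, adjusted p = 0.0206) has a 95% interval of -1.83 to -0.70. Its size was at the 99.8th percentile of all genes, and its spread within genotypes at the 99.4th. The call of Crip1 was lost without Dicer WT 1 (adjusted p = 0.0821), Dicer WT 2 (0.0762) or Dicer KO 2 (0.0504), with differences of -1.15, -1.14 and -1.40. Without both arrays numbered 3 the difference was -1.57 (adjusted p = 0.0127).

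Ahnak, the scaffold of the S100a10 and Anxa2 complex, fell by far less and on tighter arrays. Its values were -0.18, -0.05 and -0.13 in Dicer KO, against 0.17, 0.05 and 0.22 in Dicer WT. The highest KO array and the lowest WT array, both numbered 2, were the closest pair. The difference was -0.27 ± 0.07 (SE, adjusted p = 0.0492), with a 95% interval of -0.42 to -0.12 and a spread within genotypes at the 45.9th percentile of all genes. The call sat at the threshold. It was lost without Dicer KO 1 (adjusted p = 0.133), Dicer KO 2 (0.0888), Dicer KO 3 (0.113), Dicer WT 1 (0.149) or Dicer WT 3 (0.108), and without both arrays numbered 3 (0.162), while the differences stayed between -0.22 and -0.32.

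The other members of the complex, S100a10 and Anxa2, did not pass. S100a10, the calcium-independent S100 protein that links Anxa2 to Ahnak, was at -0.39, 0.05 and -0.11 in Dicer KO, against 0.12, -0.05 and 0.49 in Dicer WT. Dicer KO 1 was the lowest array and Dicer WT 3 the highest, and the KO value of replicate 2 lay above the WT value of the same number. The difference was -0.34 ± 0.16 (SE, adjusted p = 0.282, 95% interval -0.72 to 0.03), larger in size than that of Ahnak but with a spread within genotypes at the 96.7th percentile. Without Dicer WT 3 it was -0.19 (adjusted p = 0.51), and without Dicer KO 1 it was -0.22 (0.545).

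Anxa2, the membrane-binding part of the complex, had a positive difference. Its values were -0.0045, 0.15 and 0.43 in Dicer KO, against 0.0045, -0.05 and -0.05 in Dicer WT. The WT arrays lay close together and the KO arrays were spread, with Dicer KO 1 inside the WT range. The difference was 0.22 ± 0.11 (SE, adjusted p = 0.29, 95% interval -0.03 to 0.47), and without Dicer KO 3 it was 0.10 (adjusted p = 0.467). Over the 3 members of the complex, the differences were thus -0.34 for S100a10, 0.22 for Anxa2 and -0.27 for Ahnak, of which that of Ahnak passed.

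**Figure D2:**
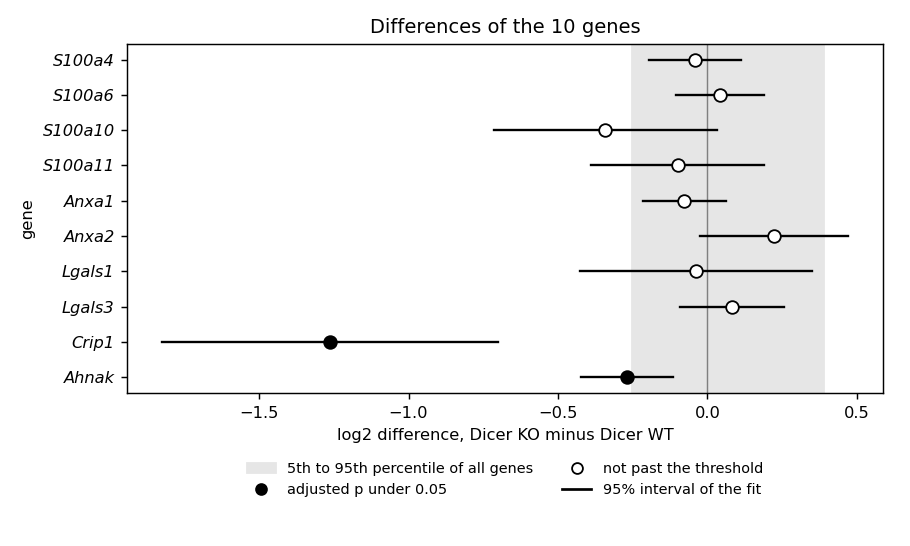
Points give the log2 difference, Dicer KO minus Dicer WT, of each of the 10 genes on the x axis, lines the 95% interval of the limma fit, and the grey band the 5th to 95th percentile of all genes (-0.25 to 0.39). The intervals of Crip1 and Ahnak lie below 0, and the other 8 cross it.

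S100a4, which binds nonmuscle myosin, and S100a6, which binds the calcyclin-binding protein Cacybp, were flat. S100a4 was at -0.08, 0.10 and -0.11 in Dicer KO, against 0.01, 0.03 and -0.01 in Dicer WT. S100a6 was at 0.06, -0.06 and 0.07 in Dicer KO, against -0.06, -0.07 and 0.07 in Dicer WT. The genotypes overlapped for both. S100a4 differed by -0.04 ± 0.07 (SE, adjusted p = 0.81), and its 95% interval allows a ratio of Dicer KO to Dicer WT from 0.873 to 1.08. S100a6 differed by 0.04 ± 0.06 (SE, adjusted p = 0.791), with a ratio from 0.930 to 1.14. A change as large as that of Crip1 lies outside both intervals.

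S100a11, a partner of Anxa1 and of other annexins, lay on 2 rows, which gave differences of -0.08 and -0.12. Their mean was -0.22, 0.04 and 0.04 in Dicer KO, against -0.03, -0.12 and 0.30 in Dicer WT. The genotypes overlapped, and Dicer WT 3 was the highest array on both rows, as it was for S100a10. The difference was -0.10 ± 0.12 (SE, adjusted p = 0.742). Without Dicer WT 3 it was 0.03 (adjusted p = 0.935), so the sign of S100a11 rests on that array.

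Anxa1, whose protein is known as a mediator of glucocorticoid action and a ligand of formyl peptide receptors, was at -0.08, 0.04 and -0.08 in Dicer KO, against 0.10, -0.02 and 0.02 in Dicer WT. Dicer KO 2 lay among the WT arrays. The difference was -0.08 ± 0.06 (SE, adjusted p = 0.549, 95% interval -0.21 to 0.06), with a spread within genotypes at the 32.7th percentile.

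Lgals1, a secreted galectin that can kill or restrain activated T cells, spread over the KO arrays about as widely as Crip1. It was at -0.33, -0.12 and 0.39 in Dicer KO, against -0.02, 0.02 and 0.05 in Dicer WT. The WT arrays sat between Dicer KO 2 and Dicer KO 3. The SD was 0.37 in Dicer KO and 0.04 in Dicer WT (n = 3 each). The difference was -0.04 ± 0.16 (SE, adjusted p = 0.943). It was 0.12 without Dicer KO 1 (adjusted p = 0.765) and -0.24 without Dicer KO 3 (0.135), so its direction was set by which KO arrays entered.

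Lgals3, which crosslinks glycoproteins at the T cell surface, was at 0.05, -0.06 and 0.08 in Dicer KO, against -0.05, -0.18 and 0.05 in Dicer WT. The genotypes overlapped, and Dicer WT 2 was the lowest array. The difference was 0.08 ± 0.07 (SE, adjusted p = 0.615, 95% interval -0.09 to 0.26).

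The high values of Anxa2 and Lgals1 on Dicer KO 3 stood beside high values of dividing-cell genes on the same array. The median of 13 S phase and mitosis genes was 0.0048, 0.17 and 0.53 in Dicer KO 1 to 3, against -0.15, -0.02 and -0.12 in Dicer WT. Of these genes Pcna, the polymerase clamp, was higher by the test (0.37 ± 0.08, adjusted p = 0.0334) and 0 were lower. Pcna was not called without any 1 array but Dicer KO 1 (0.0575 to 0.105). Their part in the values of Anxa2 and Lgals1 was not tested.

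Cells other than CD4 T cells also carry these transcripts, and in sorted bulk RNA fewer cells of a type and less RNA per cell cannot be told apart. Of 20 myeloid markers 2 were higher in Dicer KO and 0 lower, Lyz2 by 0.69 ± 0.12 (SE, adjusted p = 0.0165) and Ctss by 0.66 ± 0.05 (SE, adjusted p = 0.00127). The share called was 10%, close to the 8.73% of all genes. Lyz2 was not called without Dicer KO 2 (adjusted p = 0.0699), Dicer WT 1 (0.0654) or both arrays numbered 3 (0.0505). The myeloid median lay between -0.0027 and 0.02 on the KO arrays and between -0.04 and 0.03 on the WT arrays, and the neutrophil genes S100a8 and S100a9 differed by -0.06 and -0.16, neither passing. The B cell median lay between 0.05 and 0.11 on the KO arrays, against -0.57, 0.02 and -0.27 in Dicer WT 1 to 3. Of 15 B cell markers, 15 had a difference above 0, with a list median of 0.38. By the test 1 was higher, Bank1 (0.71 ± 0.11, adjusted p = 0.00975), which was not called without Dicer KO 2 (0.0515). The share called was 6.67%, beside 8.73% of all genes. Of 12 stromal and endothelial and of 7 NK cell markers 0 were called. Of the NK cell markers, Klrd1 had the largest difference, 0.87 ± 0.30 (SE, adjusted p = 0.136), and it was called without Dicer KO 3 (adjusted p = 0.00581). Of the stromal and endothelial markers, Pdgfra had the largest difference, -0.21 ± 0.07 (SE, adjusted p = 0.108). The part of these cells in the 10 genes was not tested.

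**Figure D3:**
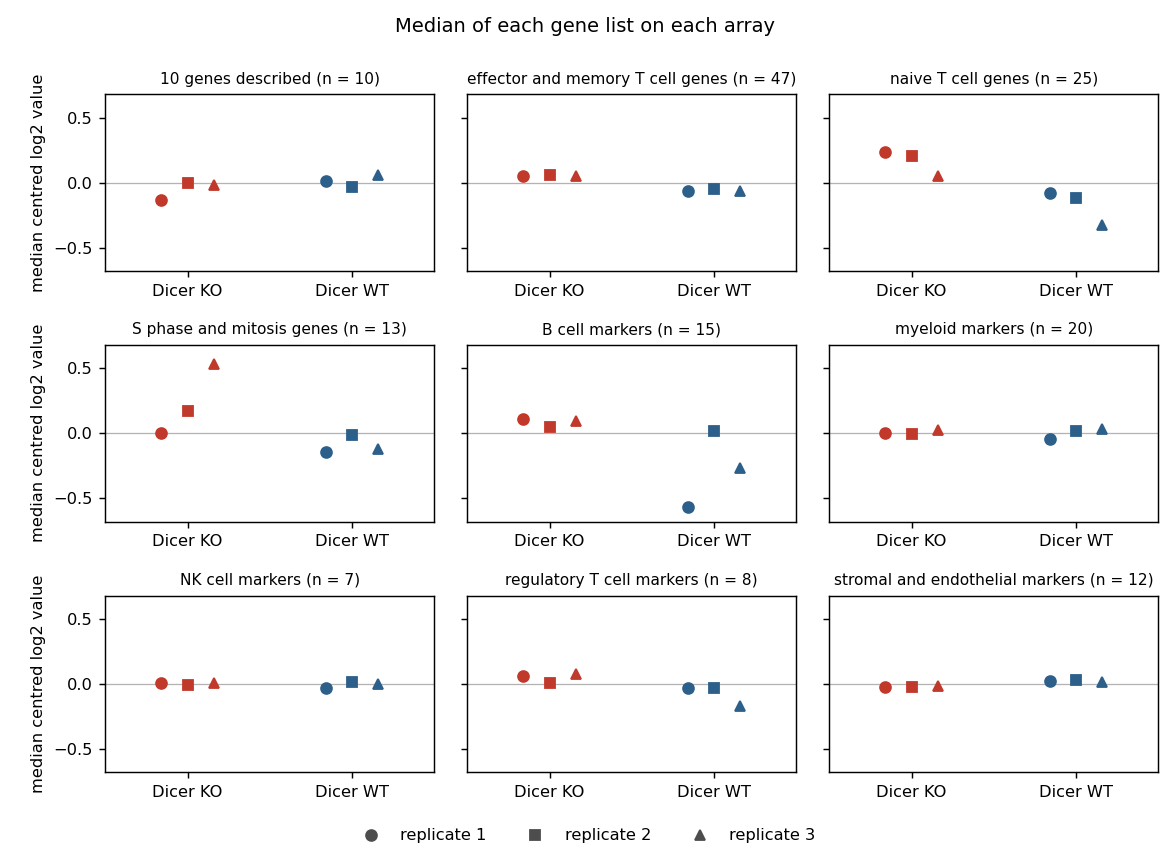
Each panel plots the median centred log2 value of 1 gene list on each array (y axis), Dicer KO left of Dicer WT, with marker shapes for replicate numbers. The medians of the naive genes and of the effector and memory genes are apart between genotypes. So are those of S phase and mitosis genes and of B cell, regulatory T cell, and stromal and endothelial markers. Of these lists, only the stromal and endothelial markers have lower medians in Dicer KO. Dicer KO 3 stands out for S phase and mitosis genes (0.53), and Dicer WT 1 for B cell markers (-0.57).

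Of 33 other genes listed for these families and measured, 2 rose and 2 fell, a share of 12.1% beside 8.73% of all genes. The list of other S100 genes had 13 measured entries, of which 0 rose and 1 fell. It counts S100pbp, which encodes an S100P-binding protein and is not an S100 gene, and leaves out S100a2 (-0.06 ± 0.06, adjusted p = 0.659). The gene that fell, S100a13, which takes part in the release of proteins lacking a signal peptide, was at -0.27, -0.19 and -0.25 in Dicer KO, against 0.30, 0.19 and 0.29 in Dicer WT. The arrays of each genotype lay close together and the genotypes were well apart. The difference of -0.50 ± 0.05 (SE, adjusted p = 0.00312) makes S100a13 1.41-fold lower, and S100a13 was called in 13 of 13 alternatives.

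Most S100 genes lie side by side on chromosome 3. In the RefSeq order of its protein-coding genes the S100a genes numbered 15, of which 14 had a value, and S100a13 alone passed. S100a13 lies between S100a1 (-0.0093 ± 0.08) and S100a14 (0.02 ± 0.06), neither of which passed. S100a4 and S100a6 lie in the same run, on either side of S100a5 (-0.09 ± 0.10). S100a11 and S100a10 are neighbours of each other, with 54 protein-coding genes between them and the end of that run. The 14 differences ran from -0.50 for S100a13 to 0.04 for S100a6.

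Of 10 other annexins, 0 were called, 7 had a difference above 0, and the median of the list was 0.11. Anxa5, which binds exposed phosphatidylserine, had the largest difference. It was at -0.0022, 0.21 and 0.21 in Dicer KO, against -0.30, -0.64 and 0.0022 in Dicer WT, and its arrays overlapped at Dicer KO 1 and Dicer WT 3. The difference of 0.45 ± 0.15 (SE, adjusted p = 0.137) was called without Dicer WT 3 (0.61, adjusted p = 0.0298).

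Galectins other than Lgals1 and Lgals3 moved in both directions, with 2 of 7 higher, 1 lower and a list median of -0.03. The share called in this short list was 42.9%, beside 8.73% of all genes. Lgals8, which binds sugars exposed on damaged vesicles, was at 0.62, 0.18 and 0.12 in Dicer KO, against -0.12, -0.51 and -0.47 in Dicer WT, a difference of 0.68 ± 0.16 (SE, adjusted p = 0.0443). Lgals9, an interferon-inducible ligand of the inhibitory receptor Tim-3, was at 0.09, 0.24 and 0.20 in Dicer KO, against -0.09, -0.23 and -0.16 in Dicer WT, a difference of 0.33 ± 0.06 (SE, adjusted p = 0.0217). Lgals4, best known from gut epithelium, was at -0.11, -0.25 and -0.14 in Dicer KO, against 0.15, 0.21 and 0.11 in Dicer WT, a difference of -0.32 ± 0.06 (SE, adjusted p = 0.0171). For all 3 the KO arrays lay apart from the WT arrays. Each call depended on single arrays. Lgals8 was not called without Dicer KO 1, Dicer KO 2, Dicer WT 2 or Dicer WT 3 (adjusted p 0.0696 to 0.138), Lgals9 without Dicer KO 2, Dicer KO 3 or Dicer WT 2 (0.0608 to 0.0928), and Lgals4 without Dicer KO 2, Dicer WT 1 or Dicer WT 2 (0.064 to 0.0683). Without both arrays numbered 3, Lgals8 and Lgals9 were not called either (0.0718 and 0.0807). Of Crip2, Crip3 and Ahnak2, 0 were called, and the largest difference was that of Crip2 (-0.10 ± 0.05, adjusted p = 0.34).

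Among 21 measured genes listed as binding partners and receptors of the 10 proteins, 2 were higher and 0 lower in Dicer KO, with a list median of 0.07. The list also counts Mgat5 and St6gal1, which encode enzymes that build glycans and are not such partners. Neither was called. The share called was 9.52%, close to the 8.73% of all genes. Lgals3bp, the secreted glycoprotein bound by galectin-3 and inducible by interferon, was at 0.33, 0.19 and 0.31 in Dicer KO, against -0.48, -0.73 and -0.19 in Dicer WT. The difference was 0.74 ± 0.13 (SE, adjusted p = 0.0158), and it was not called without Dicer KO 2 (0.055) or Dicer WT 1 (0.0649). Prkca, a kinase that binds Ahnak, was at 0.33, 0.19 and 0.15 in Dicer KO, against -0.26, -0.15 and -0.26 in Dicer WT. The difference was 0.44 ± 0.07 (SE, adjusted p = 0.00903), called in 13 of 13 alternatives. Myh9, the myosin bound by S100a4 (0.07 ± 0.06, adjusted p = 0.602), and Cacybp (0.31 ± 0.12, adjusted p = 0.184) did not pass.

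**Figure D4:**
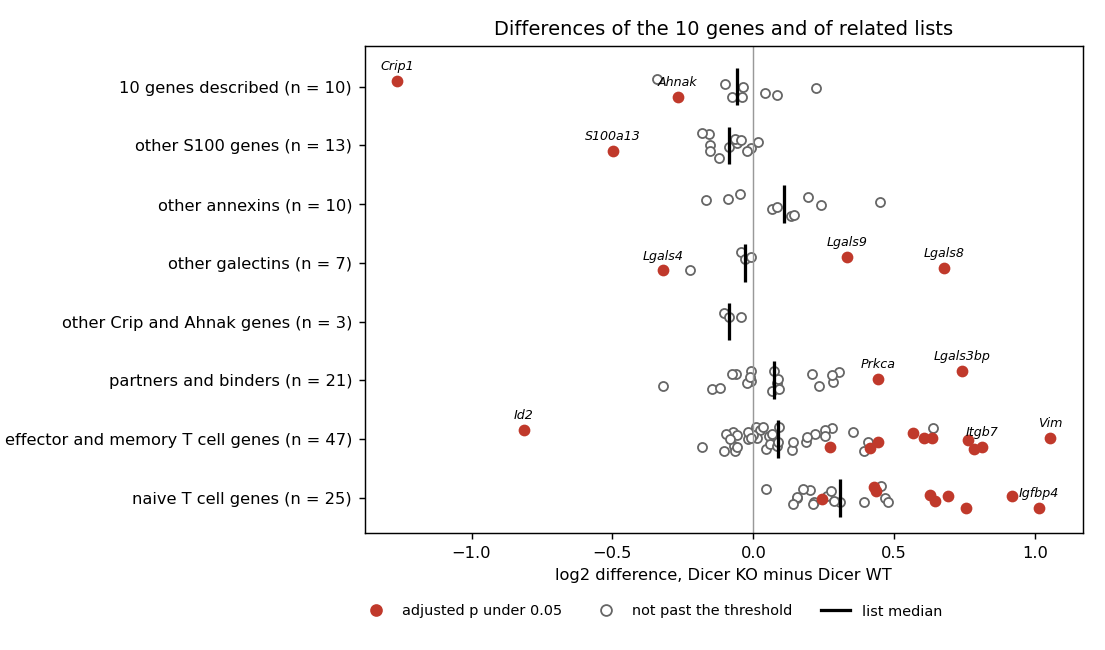
Each point is 1 gene at its log2 difference, Dicer KO minus Dicer WT (x axis), in rows by gene list, with red points past an adjusted p of 0.05, open points not, and black bars at list medians. The 10 genes have a median of -0.06 and calls to the left only, while the effector and memory list (median 0.09) and the naive list (median 0.31) have most of their calls to the right.

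Other effector and memory T cell genes were mostly called in the other direction from Crip1 and Ahnak. Of 47 measured, 10 rose and 1 fell, with a list median of 0.09. The share called was 23.4%, beside 8.73% of all genes. Of the 47, 14 were in the higher level class, which holds 16.4% of all genes but neither Crip1 nor Ahnak. When that class was fitted alone, 834 of its 3267 genes were called higher. The part of level in the contrast with Crip1 and Ahnak was not tested. Vim, the intermediate filament protein vimentin, was at 0.37, 0.78 and 0.69 in Dicer KO, against -0.37, -0.42 and -0.52 in Dicer WT, 2.08-fold higher (1.05 ± 0.11 SE, adjusted p = 0.00244). The others by lowest p were the gut-homing integrin chain Itgb7 (0.81 ± 0.06), the extracellular matrix gene Ecm1 (0.57 ± 0.07), the actin-capping gene Capg (0.76 ± 0.11) and the LFA-1 chain Itgal (0.42 ± 0.06). These 5 were called under each alternative in which they were tested, which for Ecm1 and Capg leaves out the higher level class. The 1 that fell was the transcriptional regulator Id2 (-0.82 ± 0.15, adjusted p = 0.019), not called without Dicer KO 2 (0.0557), Dicer WT 1 (0.0786) or Dicer WT 2 (0.0548). Counts of higher genes in the list fell to 5 without Dicer KO 2 and 6 without Dicer WT 1.

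Naive T cell genes were called in 1 direction. Of 25 measured, 9 rose and 0 fell in Dicer KO, with a list median of 0.31 and 25 of 25 differences above 0. The share called was 36%, beside 8.73% of all genes. Of the 25, 22 were in the higher level class. When that class was fitted alone, its median difference was 0.10 and 834 of 3267 genes were called higher. Igfbp4 (1.01 ± 0.07), Pecam1 (0.75 ± 0.07), the antiproliferative genes Btg2 (0.69 ± 0.06) and Btg1 (0.63 ± 0.09) and the lymph node homing receptor Ccr7 (0.64 ± 0.07) were the 5 of lowest p. The higher genes numbered 5 without Dicer KO 2, and 6 without Dicer WT 1 or without Dicer WT 2. The list medians were 0.24, 0.20 and 0.05 in Dicer KO 1 to 3, against -0.08, -0.12 and -0.32 in Dicer WT 1 to 3, so the naive list was lowest on Dicer WT 3. On that array S100a10, S100a11 and Ahnak were highest, while Crip1 (0.26), S100a4 (-0.01) and Anxa2 (-0.05) had their lowest WT value. S100a6, Lgals1 and Lgals3 had their highest WT value there, and Anxa1 its middle one. Of the sort markers, Cd4 rose (0.67 ± 0.07, adjusted p = 0.00328) and Cd44, a marker of memory cells, had a difference of 0.28 ± 0.14 (adjusted p = 0.304). Over 12 T cell markers, Cd4, Cd2 (0.57 ± 0.06) and Thy1 (0.44 ± 0.09) rose and Cd5 fell (-0.44 ± 0.06). The share called was 33.3%, beside 8.73% of all genes. All 12 were in the higher level class, where 834 of 3267 genes were called higher and 181 lower. Thy1 was not called without Dicer KO 1, Dicer KO 2, Dicer WT 1 or Dicer WT 2 (adjusted p 0.089 to 0.126). Both CD8 markers were not called, Cd8b1 with -0.26 ± 0.07 (adjusted p = 0.0567, and 0.0315 without Dicer KO 1). Of 8 regulatory T cell markers 1 rose, Gpr83 (0.92 ± 0.22, adjusted p = 0.0471), which kept its call among single arrays left out only without Dicer KO 1 (0.0592 to 0.167 for the others). The gate used in the sort is one meant to leave naive cells out. By the level class, 22 of the 25 naive genes were in the higher class, and Cd44 was not. Whether naive cells were left out was not tested, nor was the part of a mix of naive and memory cells in the 10 genes.

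The mean of the 10 genes was -0.21, -0.02 and 0.02 in Dicer KO 1 to 3, against 0.12, 0.06 and 0.14 in Dicer WT 1 to 3. Genes were not scaled for it, so Crip1, with the widest range of the 10, weighed most. The median of the 10 genes overlapped between genotypes. It was -0.13, -0.0064 and -0.02 in Dicer KO 1 to 3, against 0.0092, -0.03 and 0.06 in Dicer WT 1 to 3. Over the 6 arrays, the genes whose values followed the mean of the 10 genes most closely were Tkt, an enzyme of the pentose phosphate pathway (Pearson r = 0.994), Tarbp1 (0.993), Gm5886 (0.991), 4933413J09Rik (0.991) and the small GTPase Arf5 (0.991). This describes 6 arrays in which genotype separates the points, ranked over all other genes. None of the 5 passed the test (adjusted p 0.105 to 0.559).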

How the data were processed

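RNA of the 6 samples was hybridised to 1-colour Affymetrix MoGene 1.0 ST v1 arrays, per the labels' protocols. The authors deposited a table of 28815 rows of log values, read here as log2. MAS5 is named in the submitters' processing notes, with no role. Normalization and log base were not given in the sources used here. Base 2 is thus an assumption. Every row was found centred on its median (largest absolute row median 5e-07), so no filter on low values and no depth is available; the number of arrays limits the precision. Array medians lay between -0.0088 and 0.0063.

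GEO's annotation of the platform named the rows: 21780 had 1 symbol, 1605 several and 5430 were unnamed here. RefSeq gene IDs (GRCm38.p6) matched 21689 of the 21780. Rows of a gene were averaged (998 genes on several rows). Dicer KO was compared with Dicer WT by limma 3.58.1 in R 4.3.3 (lmFit, eBayes), 3 against 3 arrays, with Benjamini-Hochberg adjustment over 19935 genes and a threshold of adjusted p 0.05. The level class came from differences between arrays that were whole multiples of the float step at 8 or more (tolerance 5e-08). The procedure was tested on simulated data with independent noise for each gene and array. Such data hold no variation shared by arrays, so that test cannot vouch for the calls made here.

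The 10 genes, the related lists and the rules were chosen with earlier results of these data known. Named genes are the 10 genes; from each list the called genes, up to 5 by lowest p, or else the largest difference; Cd4, Cd44 and Dicer1; and the 5 genes most correlated with the mean of the 10. Other genes named in the text, such as Id2, Myh9, Cacybp and the neighbours on chromosome 3, were chosen after their values were seen. Alternatives were each array left out, a replicate block, array weights, median centring, quantile normalization, separate rows, the higher level class alone and robust eBayes. Leaving out both arrays numbered 3 was added after seeing the data.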

Additional observations from a re-analysis of the deposited data

How the results depend on the processing

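The 10 genes gave 0 higher calls under each alternative. Their lower calls, 2 with all arrays, numbered 0 to 1 when 1 array was left out (0 without Dicer KO 2 or Dicer WT 1), 1 with the replicate block, array weights, arrays centred on their median, robust eBayes or without both arrays numbered 3, and 0 among the 3 genes tested in the higher level class. The 1 was Crip1 in each of these except without Dicer WT 2, where it was Ahnak. Crip1 was called in 10 of 13 alternatives (differences -1.67 to -1.05) and Ahnak in 3 of 13 (-0.32 to -0.22). S100a11 changed sign without Dicer WT 3, and Lgals1 without Dicer KO 1 or Dicer KO 2 (0.01), with no call. Over all genes, 553 to 1070 were higher and 176 to 527 lower with 1 array left out, against 1184 and 557 with all. Array weights gave 1640 higher and 897 lower, and the higher level class, with 3267 genes tested, 834 and 181. Same-numbered arrays deviated together by correlations of 0.274, -0.0763 and 0.3, and 4 of 6 arrays correlated best with their own number. Whether the numbers mark pairs cannot be told from these mixed values. The main fit did not take them as pairs. The replicate block gave 1407 and 656, with Ahnak at an adjusted p of 0.0768. The cause of these changes was not tested.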
